A study of Mus musculus with 12 samples.

Results

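The genes described here are 39 macrophage and leukocyte genes, chosen by gene symbol as a list that was put together with earlier results of these data known. Of the 39 genes, 37 had a probe annotated to that gene alone, and all 37 passed the filter on dim probes. They are 37 of 16323 named genes tested in the whole series. Csf1r and Cd68 are not analysed here. The ovaries came from lethal yellow mice (LY, labelled C56BL/6J Ay/a, C57BL/6J in the study's text) and black mice (a/a of the same strain), which lack the Ay allele. The Ay allele drives agouti expression from another gene's promoter throughout the body, and LY mice become obese as adults. Female mice were studied at 180 and at 90 days of age, 3 LY and 3 black animals each time, with 1 array a mouse. All mice of all groups, black mice included, had received the GnRH antagonist Antide (10 μg/g on days 1 and 4) and then equine chorionic gonadotropin (1 IU/5 g body weight), and ovaries were collected 36 h later, on day 7. The suppressed and restimulated ovary is therefore the model in every group, and no untreated ovary was measured.

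Macrophages are the most abundant leukocytes of the rodent ovary. They lie in the stroma and theca, enter follicles that undergo atresia and corpora lutea that regress, and clear dying cells there. The transcription factor PU.1, encoded by Spi1, directs their development and the expression of many myeloid genes. Cells that take up material through scavenger and Fc receptors degrade it in lysosomes, and antigen presenting cells load peptides on MHC class II, a step that needs the invariant chain Cd74 and the protease cathepsin S. Macrophages also make most of the C1q of many tissues, the recognition part of the classical complement pathway.

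Values are background-corrected fluorescence intensities of single-colour CodeLink arrays, divided by the median of all probes on the array and called units below, so 1 unit is the median probe. The limit of sensitivity stated by the methods is 0.2 units. Differences are on the log2 scale with values under 0.01 units raised to 0.01, and are LY minus black or 180 minus 90 days. They were tested with limma on all 12 arrays and adjusted over 31359 probes (Benjamini-Hochberg, threshold 0.05). The whole ovary holds many cell types, and the summed level of 10 granulosa markers lay between 183 and 434 units over the 12 arrays and that of 10 oocyte markers between 48.4 and 96.6 units, so defining ovarian cells were present on all arrays. In RNA of a whole organ, fewer cells of a type and less RNA per cell cannot be told apart. The 180-day and the 90-day ovaries were each run as a separate array set, and a difference between ages cannot be told apart from one between the sets.

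No member differed between LY and black ovaries at either age by the adjusted test. At 180 days 0 of 37 members passed, against 0.0446% of all probes tested, and 2 of 37 had an unadjusted p under 0.05 in limma, against 12% of all probes. At 90 days again 0 of 37 passed, against 0.0446% of all probes, and 0 of 37 had an unadjusted p under 0.05, against 13.3%. The methods' t-test with Benjamini-Hochberg adjustment also called 0 members at each age. Without adjustment it gave a p under 0.05 for 2 members at 180 days (Ccl2 and Cx3cr1) and 5 at 90 days (H2-Aa, H2-Ab1, H2-Eb1, Cd8a and Coro1a). The share of all probes under 0.05 in that unadjusted t-test is not given here, so these counts single out no member. The median difference of LY from black over the 37 members was 0.15 at 180 days and 0.05 at 90 days on the log2 scale, beside 0.03 and -0.00 over all probes. Of the 37 members, 26 were higher and 11 lower in LY ovaries at 180 days, and 27 were higher and 10 lower at 90 days, by fitted values that include genes under the limit of sensitivity. Of all 31359 probes, 17541 were higher in LY ovaries at 180 days and 15403 at 90 days. The difference between the 2 genotype effects, LY minus black at 180 days less LY minus black at 90 days, passed for 0 of 37 members and for 0% of all probes, and 3 of 37 members (Cd14, H2-Aa and H2-Eb1) had an unadjusted p under 0.05 there, against 12.1% of all probes.

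The precision of these comparisons differed widely between members. The 95% interval of limma for the difference at 180 days ran from -0.08 to 0.33 for Cd4, the narrowest, and from -3.60 to -0.10 for Cd8a, the widest. For Ptprc it ran from -1.0 to 1.47, wide enough to hold a 2-fold difference in either direction. In the plot of genotype differences, the intervals of all members drawn cross 0 at 90 days, and those of all but Ccl2 and Cd8a cross 0 at 180 days.

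**Figure D1:**
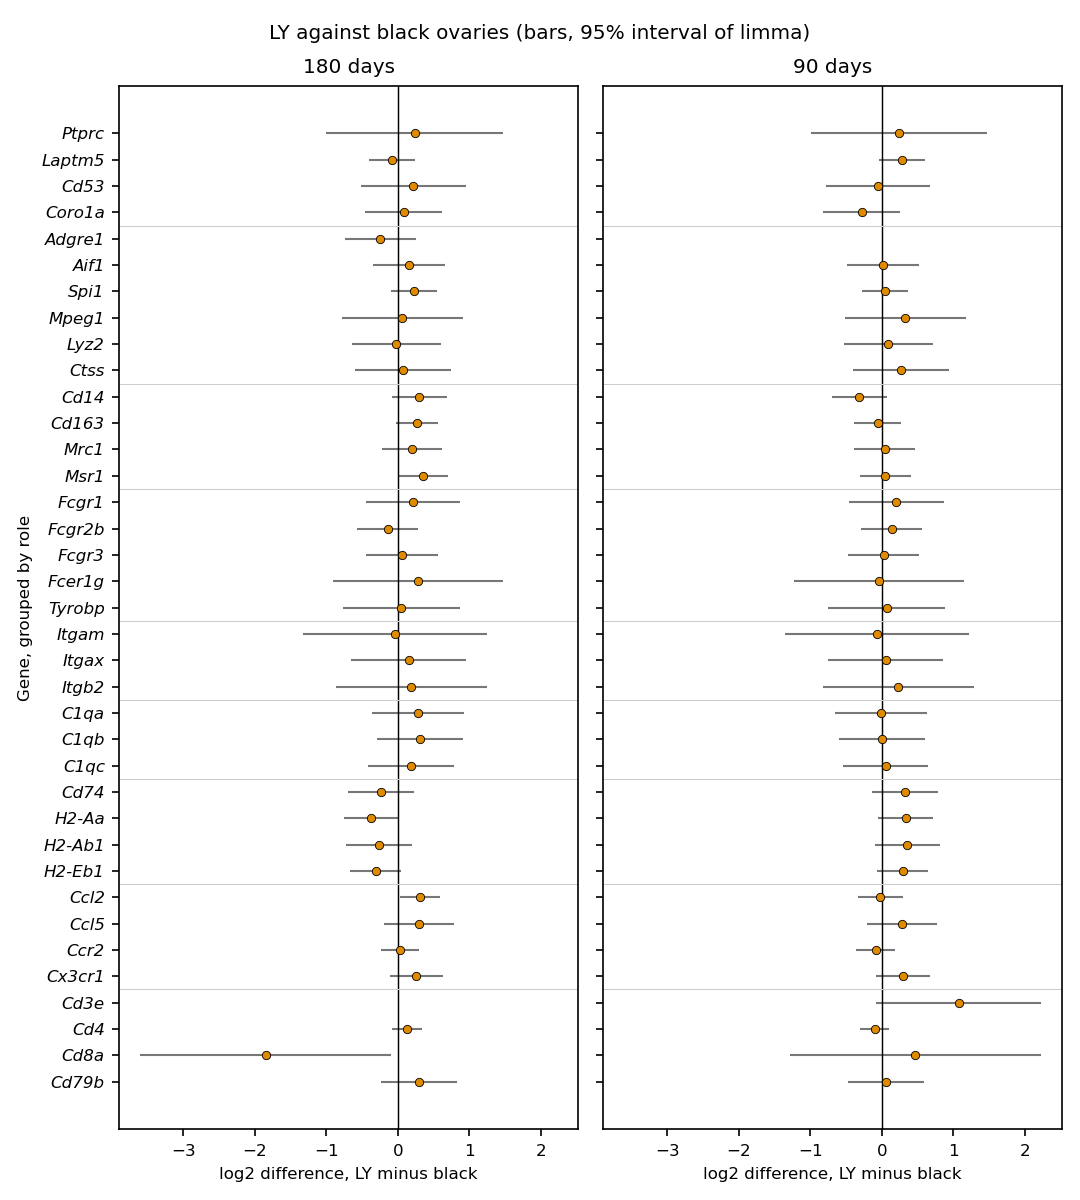
LY minus black difference of each member on the log2 scale, at 180 days (left) and 90 days (right), with the 95% interval of limma, genes grouped by role. No member passed the adjusted test at either age, and Cd8a had the widest interval at both ages. Cd3e at 180 days and Adgre1 at 90 days are not drawn because all arrays of both groups lay under the limit of sensitivity, and Cd3e at 90 days is set against a black group wholly under it.

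Within groups, 2 arrays stood out among the 180-day ovaries. The array of 180-day LY replicate 3 was the highest of its group in 29 of 37 members, against 36.0% of all probes. Replicate 1 was the lowest of the group in 29 of 37. On replicate 3, 18 of 37 members were at least 1.5-fold above both other LY arrays of that age, against 2.07% of all probes. Those 18 were Ptprc, Cd53, Coro1a, Adgre1, Mpeg1, Cd14, Fcgr1, Fcer1g, Tyrobp, Itgam, Itgax, Itgb2, C1qa, C1qb, C1qc, Cd74, Cd8a and Cd79b. For Adgre1 and Cd8a both other LY arrays lay under the limit of sensitivity, so their ratios rest on readings below it. On this array 50.3% of all probes lay above their group mean. Dividing each array by its median keeps that share near the middle, so it cannot show whether the array was high in general. Among the 180-day black arrays replicate 2 was the highest in 19 of 37 members, against 30.3% of all probes. It was at least 1.5-fold above both others in 4 (Ptprc, Fcer1g, Itgam and Cd79b), against 1.79% of all probes. Of the 18 members high on 180-day LY replicate 3, 14 were also highest of their group on 180-day black replicate 2. The matching share over all probes is not given here. The 90-day arrays were closer together, and Cd3e was the member at least 1.5-fold above both others on 1 LY array (replicate 1, against 4.45% of all probes) and on 1 black array (replicate 3, against 1.10%). All 90-day black readings of Cd3e, at 0.104, 0.107 and 0.169 units, lay under the limit of sensitivity.

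**Figure D2:**
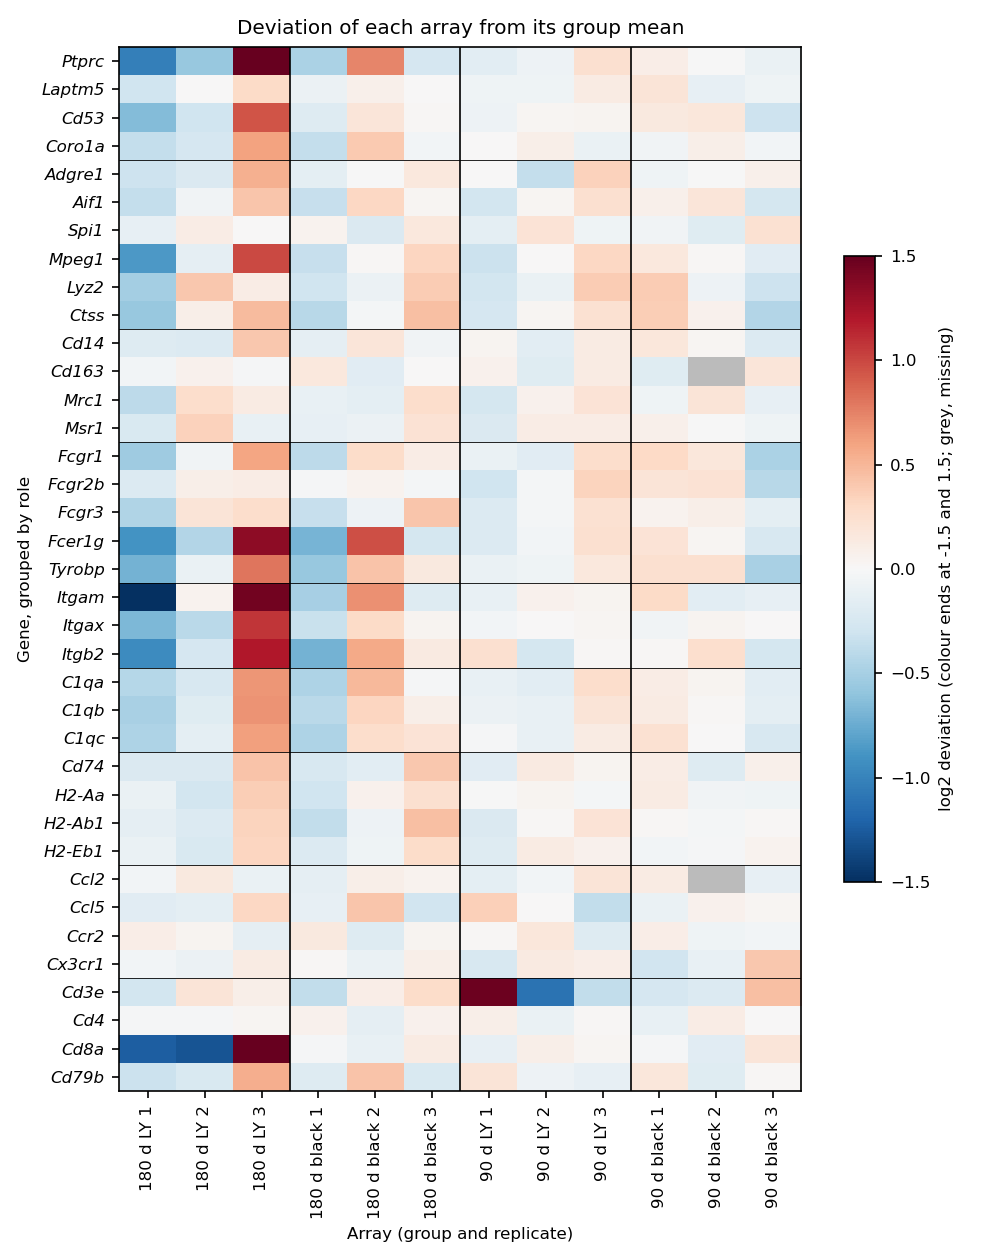
Deviation of each of the 37 members from its group mean on each of the 12 arrays, in log2 units (red, above the mean, blue, below, grey, missing value), genes grouped by role. The column of 180-day LY replicate 3 is above the group mean for 33 of 37 members, and that of 180-day LY replicate 1 for 1 of 37.

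Leaving out LY replicate 3 turned the sign of the median member difference at 180 days to -0.12, against 0.15 with all arrays, and leaving out black replicate 1 turned it to -0.05. Without both that array and black replicate 2, a choice made after seeing the values, the median was -0.07. Without LY replicate 3 limma called 1 member at 180 days, Cd8a, which is described with the lymphocyte genes.

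Among the genes of all leukocytes, Ptprc encodes the tyrosine phosphatase CD45. It had 0.720, 0.986 and 4.38 units in 180-day LY ovaries, against 0.895, 2.05 and 1.04 units in 180-day black ovaries. The third LY array was thus 4.45-fold above the next highest of its group, and the groups overlapped. At 90 days Ptprc had 0.489, 0.519 and 0.649 units in LY ovaries, against 0.499, 0.464 and 0.433 units in black ovaries, an overlapping and much narrower range. The difference was 0.23 ± 0.56 at 180 days (SE, adjusted p = 0.91) and 0.24 at 90 days, and without 180-day LY replicate 3 that at 180 days was -0.56. Laptm5, a lysosomal membrane protein of blood cells, Cd53, a leukocyte tetraspanin, and Coro1a, an actin-binding coronin of leukocytes, gave differences between -0.08 and 0.22 at 180 days. At 90 days the groups did not overlap for Laptm5, at 0.28, nor for Coro1a, at -0.28. Groups without overlap and higher in LY made up 6 of 37 members at 90 days, against 6.92% of all probes, and those lower in LY 1 of 37, against 9.66%. A second probe of Coro1a differed by -0.01 at 90 days.

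Identity and lysosomal genes of macrophages gave no difference past the test either. Adgre1 encodes F4/80, the classical surface marker of mouse macrophages, and its probe was dim, close to the limit of sensitivity. It had 0.164, 0.175 and 0.295 units in 180-day LY ovaries, against 0.218, 0.241 and 0.270 units in 180-day black ovaries. The first and second of the LY arrays lay under the limit. All 6 arrays of 90-day ovaries, at 0.103 to 0.167 units, lay under the limit of sensitivity, so no genotype difference is given at that age. Lyz2, lysozyme M of macrophages and granulocytes, had 28.7, 54.2 and 44.4 units in 180-day LY ovaries, against 33.9, 39.3 and 54.1 units in 180-day black ovaries. Its highest values were therefore on LY replicate 2 and black replicate 3, not on the arrays that were highest in Ptprc. Cathepsin S, encoded by Ctss, was highest on LY replicate 3, at 71.7 units, and on black replicate 3, at 66.9 units. Mpeg1, which encodes the pore-forming perforin-2, had 1.82, 3.02 and 6.61 units in 180-day LY ovaries, against 2.51, 3.23 and 3.98 units in 180-day black ovaries. Aif1, the calcium-binding protein IBA1 of macrophages, differed by 0.15 and Spi1 by 0.22 at 180 days. The 6 genes of this role gave differences between -0.25 and 0.22 at that age, and the 5 other than Adgre1 gave differences between 0.02 and 0.33 at 90 days.

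PU.1 binds purine-rich sites of the ETS type, and the letters GAGGAA on either strand were searched in the RefSeq promoter windows of GRCm38.p6 (250 bases before to 50 after the start). They occurred in 15 of 28 windows of 25 of the listed genes, against 28.3% of all 32851 windows, in which other factors may equally bind. Itgam and Mrc1 are shown because they held the most matches, 3 each, which are in capitals (GAGGAA, or TTCCTC where the match lies on the opposite strand). The Itgam window is chr7:128062390-128062689 on the plus strand, and that of Mrc1 is chr2:14229164-14229463, also on the plus strand.
Itgam: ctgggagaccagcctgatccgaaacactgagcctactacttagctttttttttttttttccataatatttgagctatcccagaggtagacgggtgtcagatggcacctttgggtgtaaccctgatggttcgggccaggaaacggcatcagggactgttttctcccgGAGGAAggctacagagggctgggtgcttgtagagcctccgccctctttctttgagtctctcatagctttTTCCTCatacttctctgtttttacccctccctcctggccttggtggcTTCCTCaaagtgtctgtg
Mrc1: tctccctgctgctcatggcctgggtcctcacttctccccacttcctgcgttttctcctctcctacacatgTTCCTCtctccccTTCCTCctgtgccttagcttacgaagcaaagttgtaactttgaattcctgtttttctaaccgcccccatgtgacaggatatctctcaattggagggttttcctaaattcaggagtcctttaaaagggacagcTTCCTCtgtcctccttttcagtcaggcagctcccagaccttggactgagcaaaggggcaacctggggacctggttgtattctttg
The matches began 84 and 15 bases before and 32 bases after the annotated start of Itgam, and at positions -180, -167 and -35 relative to that of Mrc1. Itgam was among the members high on 180-day LY replicate 3 and Mrc1 was not.

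Of the 4 scavenger and pattern receptors, Cd14 was high on the same arrays as Ptprc and the other 3 were not. Mrc1, the mannose receptor CD206, had 1.11, 1.74 and 1.58 units in 180-day LY ovaries, against 1.17, 1.14 and 1.51 units in 180-day black ovaries. It was thus not highest on LY replicate 3 nor on black replicate 2. Its difference was 0.20 at 180 days (adjusted p = 0.73) and 0.04 at 90 days (adjusted p = 0.95). Msr1, scavenger receptor A, differed by 0.35, the largest positive value of any member at 180 days (adjusted p = 0.42), and its groups overlapped. Cd163, the receptor for haemoglobin bound to haptoglobin, had 0.783, 0.842 and 0.795 units in 180-day LY ovaries, against 0.748, 0.595 and 0.671 units in 180-day black ovaries, without overlap. In the 90-day black group Cd163 was missing on replicate 2 and its difference rests on 2 black arrays. Cd14, the co-receptor for lipopolysaccharide, had 4.43, 4.38 and 6.69 units in 180-day LY ovaries, against 3.77, 4.68 and 3.98 units in 180-day black ovaries, highest on LY replicate 3 and black replicate 2. It differed by 0.30 at 180 days and by -0.32 at 90 days, and the difference between these was 0.61 (unadjusted p = 0.031, adjusted p = 0.35).

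Fc receptors and the adaptors that signal for them differed among themselves in how far they followed Ptprc from array to array. Fcer1g, the γ chain shared by the activating Fc receptors, had 4.40, 6.08 and 20.8 units in 180-day LY ovaries, against 4.16, 13.2 and 5.64 units in 180-day black ovaries. Both groups therefore held 1 array far above the rest, the same arrays as for Ptprc. Tyrobp, the adaptor DAP12, had 6.02, 9.19 and 17.1 units in 180-day LY ovaries, against 6.39, 12.7 and 10.5 units in 180-day black ovaries. Fcgr3, an activating IgG receptor, had 6.42, 9.96 and 10.5 units in 180-day LY ovaries, against 6.62, 8.0 and 11.2 units in 180-day black ovaries, so it was nearly as high on LY replicate 2 as on replicate 3. Fcgr2b, the inhibitory IgG receptor, was nearly even over the 180-day arrays, at 4.32, 5.30 and 5.38 units in LY ovaries, against 5.42, 5.69 and 5.37 units in black ovaries. Genotype differences of the 5 genes of this role lay between -0.14 and 0.28 at 180 days and between -0.04 and 0.20 at 90 days, with Fcgr1, the high-affinity IgG receptor, at 0.21 and 0.20.

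The leukocyte integrins showed the same pair of high arrays. Itgax, the α chain CD11c of dendritic cells and some macrophages, had 1.65, 1.98 and 5.54 units in 180-day LY ovaries, against 1.88, 2.89 and 2.45 units in 180-day black ovaries. At 90 days it lay within a narrow band, at 1.84, 1.90 and 1.93 units in LY ovaries, against 1.76, 1.87 and 1.83 units in black ovaries. Itgb2, the β chain CD18 that pairs with it, had 1.46, 2.35 and 6.45 units in 180-day LY ovaries, against 1.51, 3.64 and 2.71 units in 180-day black ovaries. Itgam, the α chain CD11b, had 0.189, 0.554 and 1.45 units in 180-day LY ovaries, against 0.390, 0.890 and 0.483 units in 180-day black ovaries, with LY replicate 1 under the limit of sensitivity. The differences at 180 days were 0.15 for Itgax, 0.19 for Itgb2 and -0.05 for Itgam (adjusted p = 0.91, 0.91 and 0.98). Without LY replicate 3 that of Itgax was -0.39 (adjusted p = 0.55).

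The 3 chains of C1q followed each other. C1qa had 16.2, 18.4 and 34.3 units in 180-day LY ovaries, against 13.0, 25.2 and 17.6 units in 180-day black ovaries. C1qb had 37.1, 46.1 and 83.1 units in LY ovaries, against 31.9, 52.9 and 44.8 units in black ovaries of that age, and C1qc was likewise highest on LY replicate 3 and black replicate 2. For each of the 3 chains LY replicate 3 was 1.70- to 1.86-fold above the next LY array. The differences were 0.28, 0.30 and 0.18 for C1qa, C1qb and C1qc at 180 days and lay between -0.01 and 0.05 at 90 days, none past the test, and that of C1qa at 180 days was -0.05 without LY replicate 3.

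**Figure D3:**
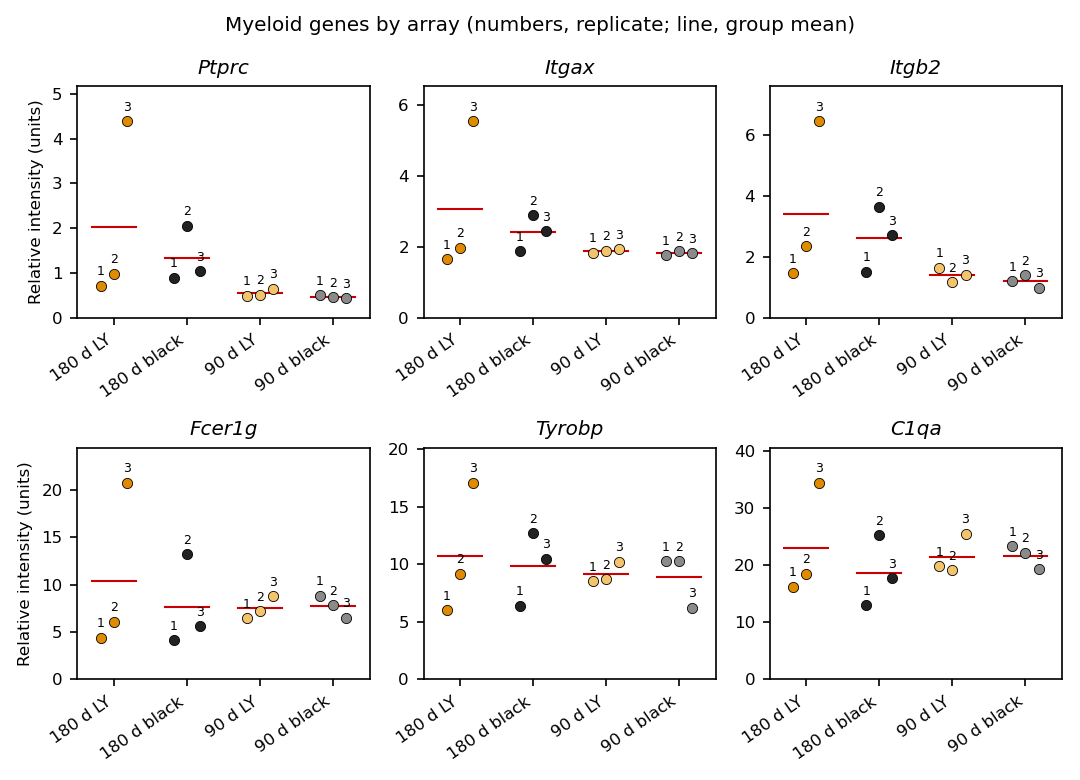
Relative intensity in units (linear axes from 0) of 6 myeloid genes on each array, with the replicate number above each point and the group mean as a line. 180-day LY replicate 3 and 180-day black replicate 2 are the highest points of their groups in all 6 genes, while the 90-day groups are tighter for Ptprc and Itgax.

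As a description of this array pattern, the deviations of 8 of 34 other members from their group means correlated with those of Ptprc at 0.9 or above over the 12 arrays, as did 135 of 30795 probes. Over the 10 arrays left without 180-day LY replicate 3 and 180-day black replicate 2, 3 members did so (Fcer1g, which was among the 8, and Mpeg1 and Lyz2, which were not), as did 93 probes. Both probe counts include Ptprc itself and the members given. The members without a missing value were used, and the arrays share 4 group means. Genes other than the 39 whose deviations were most like those of Ptprc over the 12 arrays, picked after their values were seen, were Pld4, Clec4a1 and Pilra, each at 0.99. Pld4 had 2.77, 3.69 and 19.2 units in 180-day LY ovaries, against 3.33, 9.06 and 3.5 units in 180-day black ovaries.

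Sums over markers of other cells on 180-day LY replicate 3 were set beside its high members. Over 42 other macrophage genes, of which 2 were under 0.2 units on all arrays, the sum was 235, 297 and 351 units on LY replicates 1 to 3, against 257, 293 and 294 units on black replicates 1 to 3. For 11 neutrophil markers it was 6.82, 8.83 and 6.93 units in LY and 6.37, 5.78 and 6.25 units in black ovaries, so replicate 3 was not the highest LY array. The sum for 17 T and NK cell markers was highest on replicate 3, at 20.7 units, while the lowest LY array had 18.9 units and the black arrays 19.1 to 20.5 units. The sums for 9 B and plasma cell markers (23.1, 20.2 and 21.4 units in LY, 23.8, 17.6 and 24.6 units in black) and 8 adipocyte markers (29.4, 28.9 and 29.4 units in LY, 25.6, 21.9 and 49.8 units in black) were not highest on replicate 3 among the 180-day arrays. The 4 markers of lymph node and spleen stroma summed to 7.50, 9.25 and 10.4 units in LY and 5.60, 8.68 and 6.74 units in black ovaries, highest on the same 2 arrays as Ptprc, and their part in the result was not tested. Oocyte markers were lowest on LY replicate 3 among the 12 arrays, at 48.4 units, and their part was not tested.

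MHC class II genes were lower in LY ovaries at 180 days and higher at 90 days in all 4 members, though none of these differences passed the adjusted test. Cd74 had 19.0, 19.0 and 29.6 units in 180-day LY ovaries, against 21.9, 23.1 and 34.3 units in 180-day black ovaries. At 90 days it had 11.3, 13.9 and 13.1 units in LY ovaries, against 11.0, 8.95 and 10.8 units in black ovaries, with all LY values above all black values. H2-Aa, the α chain of the class II molecule I-A, had 18.1, 15.97 and 24.9 units in 180-day LY ovaries, against 20.3, 26.2 and 29.5 units in 180-day black ovaries, and these groups overlapped. At 90 days it had 29.1, 30.2 and 28.7 units in LY ovaries, against 25.3, 22.4 and 22.3 units in black ovaries, without overlap. H2-Ab1, the β chain of I-A, had 16.2, 19.1 and 21.7 units in 90-day LY ovaries, against 14.9, 14.4 and 14.9 units in 90-day black ovaries. H2-Eb1, the β chain of I-E, had 16.9, 21.1 and 20.2 units in 90-day LY ovaries, against 15.3, 15.6 and 16.4 units in 90-day black ovaries. All 4 genes were thus without overlap at 90 days, and were among the 6 members higher in LY of which 6.92% of all probes is the background.

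On the log2 scale the differences of Cd74, H2-Aa, H2-Ab1 and H2-Eb1 were -0.24, -0.38, -0.26 and -0.31 at 180 days (adjusted p between 0.42 and 0.70) and 0.32, 0.33, 0.36 and 0.29 at 90 days (adjusted p between 0.44 and 0.55). The signs were the same without any single array at either age. The change of the genotype difference with age was -0.56, -0.71, -0.62 and -0.61 (adjusted p = 0.49, 0.27, 0.44 and 0.31). A second probe of H2-Ab1 gave -0.44 at 180 days and 0.37 at 90 days. The class II genes are known to share their regulation and the H2 genes to neighbour each other, so the 4 are not independent counts. These genes were also highest on black replicate 3 among the 180-day black arrays, at 34.3 units for Cd74, where Lyz2 and Ctss were highest too, and not on black replicate 2. On that array the adipocyte markers, at 49.8 units, and 2 luteal markers, at 32.8 units, were also the highest of the 6 arrays of that age. Granulosa and oocyte markers had the same signs, none of them past the test. Of 10 granulosa markers, 9 were lower in LY ovaries at 180 days (median -0.44) and 9 higher at 90 days (median 0.25). Of 10 oocyte markers, 9 were lower at 180 days (median -0.46) and 9 higher at 90 days (median 0.14). Other ovarian markers did not share both signs. Their medians at 180 and 90 days were 0.21 and 0.0015 for theca and stroma and -0.29 and -0.69 for surface epithelium. They were -0.01 and -0.20 for endothelium and -1.23 and -1.11 for 2 luteal markers. The part of these markers in the result was not tested.

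**Figure D4:**
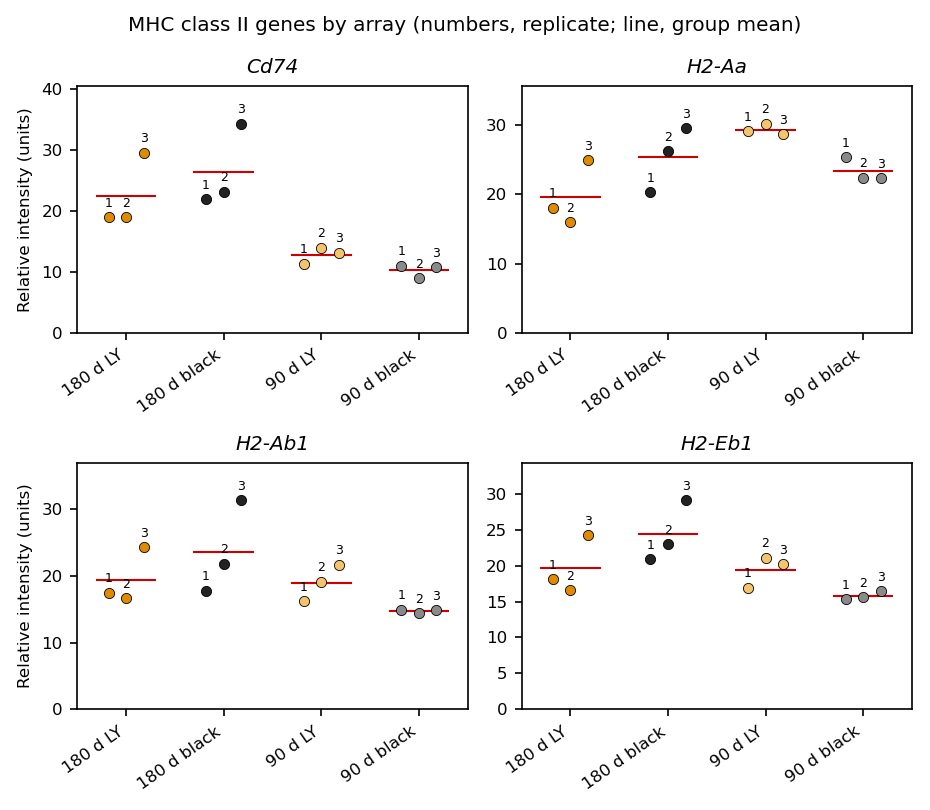
Relative intensity in units (linear axes from 0) of the 4 MHC class II genes on each array, with the replicate number above each point and the group mean as a line. At 90 days the LY points lie above the black points in all 4 genes, while at 180 days the groups overlap and the LY means are lower.

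Class II promoters are known for conserved X and Y boxes, which bind the factors that the coactivator CIITA joins. The RefSeq windows of GRCm38.p6 for H2-Aa (chr17:34287774-34288073, minus strand) and H2-Eb1 (chr17:34305617-34305916, plus strand) are shown because both held the Y box letters CTGATTGG, searched on both strands. These were the 2 of 28 windows of the listed genes with the letters, against 4.10% of all windows. No match is given for Cd74 or H2-Ab1, so nothing is said of the class II genes as a set. Matches are in capitals.
H2-Aa: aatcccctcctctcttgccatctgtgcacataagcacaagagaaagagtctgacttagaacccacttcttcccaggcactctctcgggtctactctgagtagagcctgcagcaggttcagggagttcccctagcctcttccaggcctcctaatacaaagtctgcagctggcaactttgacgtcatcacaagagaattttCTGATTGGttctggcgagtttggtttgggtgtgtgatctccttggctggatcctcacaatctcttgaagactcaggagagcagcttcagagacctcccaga
H2-Eb1: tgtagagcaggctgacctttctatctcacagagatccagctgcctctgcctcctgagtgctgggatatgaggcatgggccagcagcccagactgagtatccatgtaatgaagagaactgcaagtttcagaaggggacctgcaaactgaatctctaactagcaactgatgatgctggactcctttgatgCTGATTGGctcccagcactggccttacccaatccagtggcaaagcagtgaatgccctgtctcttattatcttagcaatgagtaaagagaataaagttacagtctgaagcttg
The Y box letters began 51 bases before the annotated start in H2-Aa and 62 bases before it in H2-Eb1.

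Among chemokines and their receptors no member passed the test. Ccl2, the monocyte chemoattractant MCP-1, had 3.01, 3.44 and 2.90 units in 180-day LY ovaries, against 2.30, 2.67 and 2.60 units in 180-day black ovaries, without overlap. The difference was 0.31, with a 95% interval from 0.03 to 0.58, the smallest adjusted p of any member at 180 days (unadjusted p = 0.035, adjusted p = 0.38). At 90 days Ccl2 had 1.69, 1.82 and 2.14 units in LY ovaries, against 2.08 and 1.74 units in black ovaries, where replicate 2 was missing, and differed by -0.02. Ccr2, the receptor of Ccl2 on monocytes, differed by 0.03 and -0.09 at 180 and 90 days, and Ccl5, a chemokine of T cells and macrophages, by 0.29 and 0.28. Ccl5 was highest on LY replicate 3, at 2.69 units, and on black replicate 2, at 2.35 units, among the arrays of those groups. Cx3cr1, the fractalkine receptor, had 0.888, 0.858 and 0.991 units in 180-day LY ovaries, against 0.771, 0.710 and 0.807 units in 180-day black ovaries. Ccl2, Cx3cr1, Cd163 and Cd4 were the 4 of 37 members without overlap and higher in LY at 180 days, against 14.3% of all probes, and 0 of 37 were without overlap and lower, against 8.37%.

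Lymphocyte genes included the dimmest members. Cd3e, a chain of the T cell receptor complex, had 0.096, 0.132 and 0.123 units in 180-day LY ovaries, against 0.094, 0.131 and 0.147 units in 180-day black ovaries, all under the limit of sensitivity. At 90 days it had 0.723, 0.121 and 0.201 units in LY ovaries, against 0.104, 0.107 and 0.169 units in black ovaries, so 1 LY array stood far above the rest and all black arrays lay under the limit. The difference of Cd3e by the values as read was 1.08 (adjusted p = 0.41). With the black values raised to the limit, Cd3e was 1.30-fold higher in LY ovaries on average. That excess was carried by LY replicate 1, and LY replicate 2 lay under the limit as well, so it is no lower bound. Cd8a, the co-receptor of cytotoxic T cells, had 0.032, 0.031 and 0.441 units in 180-day LY ovaries, against 0.270, 0.254 and 0.299 units in 180-day black ovaries. The first 2 LY values were under the limit of sensitivity and the third was the highest of the 6. The difference of -1.85 (adjusted p = 0.39) was -0.07 with values under 0.2 units set to 0.2. Without LY replicate 3 it was -3.12 (adjusted p = 1.0e-05), a value that rests on 2 arrays with readings under that limit. Cd79b, a chain of the B cell receptor complex, had 1.87, 2.00 and 3.40 units in 180-day LY ovaries, against 1.67, 2.56 and 1.62 units in 180-day black ovaries, the same 2 arrays being highest as for Ptprc. Cd4, the co-receptor of helper T cells and also present on some myeloid cells, differed by 0.13 at 180 days and -0.10 at 90 days.

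Between ages the members differed more than between genotypes, as did all probes. In LY ovaries 16 of 37 members passed the test between 180 and 90 days, against 47.2% of all probes, 11 of them higher at 180 days (27.9% of all probes) and 5 lower (19.3%). In black ovaries 16 of 37 passed, against 46.8% of all probes, 12 of them higher (25.9%) and 4 lower (20.9%). The shares of members called are close to those of all probes. The median difference of 180 from 90 days over the members was 0.39 in LY and 0.38 in black ovaries, against 0.08 and 0.04 over all probes. Of the members called, 10 were higher in both genotypes (Laptm5, Adgre1, Aif1, Lyz2, Cd14, Fcgr1, Fcgr2b, Cd74, Ccl2 and Ccl5) and 3 were lower in both (Mrc1, Ccr2 and Cd4). These differences cannot be told apart from a shift between the array sets.

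The inhibitory receptor Fcgr2b rose most, by 1.52 in LY and 1.79 in black ovaries (adjusted p = 0.00011 and 3.5e-05). It had 4.32 to 5.38 units in 180-day LY ovaries, against 1.41 to 2.19 units in 90-day LY ovaries, and 5.37 to 5.69 units in 180-day black ovaries, against 1.19 to 1.84 units in 90-day black ovaries, with no overlap in either genotype. Cd14 rose by 1.48 in LY and 0.87 in black ovaries (adjusted p = 6.4e-05 and 0.0021). Cd74 rose by 0.79 and 1.34, and Aif1 by 0.98 and 0.85. Ccl2 rose by 0.73 in LY ovaries and by 0.41 in black ovaries, the second value resting on 2 of the 90-day black arrays. Adgre1 was called higher at 180 days in both genotypes, but its 90-day arrays were all under the limit of sensitivity. With those 90-day values raised to the limit, it was 1.02-fold higher in LY and at least 1.21-fold higher in black ovaries. In LY ovaries 2 of the 3 arrays at 180 days lay under the limit as well, and with values under 0.2 units set to 0.2 the gene was called in neither genotype. The 3 integrin genes, the adaptors Fcer1g and Tyrobp and the receptor Fcgr3 were not called in either genotype, and Ptprc, at 1.41 in LY and 1.42 in black ovaries, had an adjusted p of 0.059 in each.

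Mrc1 was lower at 180 days, by -1.20 in LY and -1.35 in black ovaries (adjusted p = 0.00052 and 0.00023). It had 1.11, 1.74 and 1.58 units in 180-day LY ovaries, against 2.76, 3.47 and 3.83 units in 90-day LY ovaries, and 1.17, 1.14 and 1.51 units in 180-day black ovaries, against 3.09, 3.69 and 2.95 units in 90-day black ovaries. The ages did not overlap in either genotype. Ccr2 was lower by -0.65 and -0.76 and Cd4 by -0.38 and -0.60 in LY and black ovaries. The members called in 1 genotype alone were C1qb, H2-Aa and Cd8a in LY and H2-Ab1, H2-Eb1 and Spi1 in black ovaries, and for none of them did the difference between genotypes pass the test. C1qb in LY ovaries was 0.75 higher at 180 days, but -0.02 after quantile normalization. H2-Ab1 in black ovaries was 0.64 higher by its brightest probe and -0.06 by its second probe, so its change between ages depended on the probe. In LY ovaries the same 2 probes gave 0.02 and -0.88 (adjusted p = 0.010 for the second). The fall of Cd8a in LY ovaries, by 2.21, was 0.44 with values under 0.2 units set to 0.2 and was not called then (adjusted p = 0.16).

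In LY ovaries 8 of the 16 calls stood without any single array (Aif1, Cd14, Mrc1, Fcgr2b, Cd74, Ccl2, Ccr2 and Cd4), and in black ovaries 10 of the 16 did (Laptm5, Adgre1, Aif1, Cd14, Mrc1, Fcgr2b, Cd74, H2-Eb1, Ccr2 and Cd4). The number of calls in LY ovaries was 9 when 180-day LY replicate 2 was left out, and 10 when replicate 1 or replicate 2 of the 90-day LY group was. In black ovaries it was 10 without 90-day black replicate 3. The share of all probes called in these fits is not given here, so the lower counts are not read as particular to the members.

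**Figure D5:**
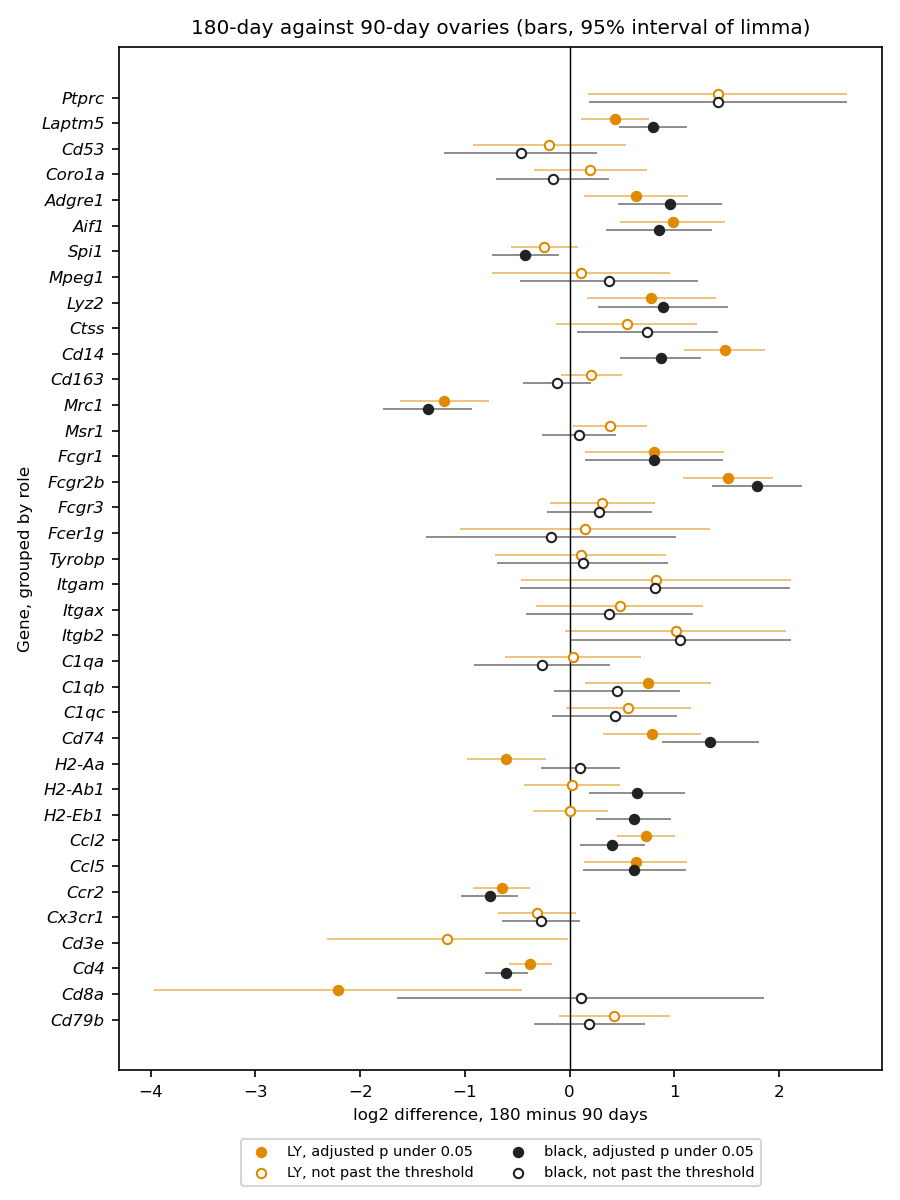
180 minus 90 day difference of each member on the log2 scale in LY and black ovaries, with the 95% interval of limma, filled points marking an adjusted p under 0.05. Fcgr2b, Cd14 and Cd74 lie to the right and Mrc1 and Ccr2 to the left of 0 in both genotypes, with age and array set inseparable in this design. Cd3e in black ovaries is not drawn because all arrays of both ages lay under the limit of sensitivity.

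Other lists of immune genes gave no member past the genotype test at either age. As background for their directions, 17541 of all 31359 probes were higher in LY ovaries at 180 days and 15403 at 90 days. Of 38 further macrophage genes tested, 23 were higher and 15 lower in LY ovaries at 180 days, with a median of 0.09, and 17 were higher and 21 lower at 90 days, with a median of -0.07. Hmox1, the haem-degrading oxygenase, had the smallest p of that list at both ages, with -0.40 at 180 days (adjusted p = 0.22) and -0.33 at 90 days (adjusted p = 0.24). Of 21 genes of macrophage activation, 0 passed, and 17 were higher in LY ovaries at 180 days with a median of 0.12. Of 13 genes of leukocyte recruitment, 0 passed, and Selp, the P-selectin of endothelium and platelets, differed by 0.72 at 180 days (adjusted p = 0.11). Of 15 other genes of antigen presentation, 0 passed, and Tap2, a peptide transporter for class I, differed by 0.43 at 180 days and -0.42 at 90 days (adjusted p = 0.35 and 0.32). Of 11 interferon response genes, 10 were higher in LY ovaries at 180 days, with a median of 0.16, and 9 were lower at 90 days, with a median of -0.29, none past the test. Of these, Rsad2 had the smallest p at 90 days, with -0.85 (adjusted p = 0.11). Oasl2, a protein related to the oligoadenylate synthetases, differed by -0.48 at that age (adjusted p = 0.17). Of 7 other complement genes, 0 passed, with C6 at 1.01 (adjusted p = 0.30) and C2, a protease of the classical pathway, at -0.32 (adjusted p = 0.36) at 180 days. Of 10 neutrophil markers, 0 passed. S100a8, a calcium-binding protein of neutrophils, was at 0.61 at 180 days (adjusted p = 0.28) and Ltf at -1.66 at 90 days (adjusted p = 0.18). Of 17 T and NK cell, 9 B and plasma cell and 11 mast cell and eosinophil markers, 0 passed at either age.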

How the data were processed

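RNA of whole ovaries of 12 mice was hybridized to CodeLink arrays, 1 array a mouse, in 4 groups of 3 taken from the sample labels. The authors scanned the slides with GenePix, subtracted background in the CodeLink software and, in GeneSpring, set every slide to its 50th percentile. The deposited intensity values are linear and were not centred by gene. The replicates are separate mice.

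The median of the array then served as its unit, with a floor of 0.01 units before the log2 step. The platform annotation gives 1 gene for 21615 of the 36227 probes, several for 681 and none for 13931. A probe was tested where any group averaged 0.2 units or more and no group was wholly missing, which left 31359. Group means were fitted in limma 3.58.1 (R 4.3.3) over all arrays, with 8 residual and 2.46 prior degrees of freedom and the Benjamini-Hochberg adjustment. The brightest probe stood for a gene. A two-sided exact permutation test of 3 mice against 3 cannot go below 0.1, so none is given. Between 166 and 503 values an array were missing, and the small number of arrays limits the precision.

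The members and the other gene lists were chosen with earlier results of these data known. Values on every array were given by rule for 13 leading members, namely Ptprc, Adgre1, C1qa, Cd74, H2-Aa, Ccl2, Itgax, Cd3e, Cd79b, Mrc1, Tyrobp, Fcgr3 and Lyz2, and up to 3 genes of another list were named by their unadjusted p. The other genes given with values were chosen after their values were seen. Replicate numbers were not used to pair the arrays in the main fit. Deviations of same-numbered arrays correlated between -0.07 and 0.15, and those of differently numbered arrays between -0.16 and 0.12. These ranges cannot exclude a pairing. The procedure was tested on simulated data. Alternatives tried were other floors, filters, scalings, variance models, a replicate block, the methods' t-test, the mean over probes, and leaving out single arrays.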

Additional observations from a re-analysis of the deposited data

How the results depend on the processing

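The genotype comparisons called 0 members at each age and in the interaction under every alternative with adjusted p-values except 2. Without 180-day LY replicate 3, and without that array and 180-day black replicate 2 together, 1 member (Cd8a) was called at 180 days and 1 in the interaction, so the range over single arrays left out was 0 to 1 for both. The methods' t-test without adjustment gave 2 members at 180 days and 5 at 90 days, counts for which the share of all probes is not given here. The 16 calls between ages in LY ovaries became 10 without a filter, 10 with the values as deposited (5 higher and 5 lower), 9 with limma on the 6 arrays compared, 6 with the methods' t-test and Benjamini-Hochberg, 9 with it unadjusted, and 9 to 21 over single arrays left out. Quantile normalization split them as 8 higher and 6 lower. The 16 calls in black ovaries became 9 with the methods' t-test and Benjamini-Hochberg and 10 to 19 over single arrays left out. With the replicate block the counts were 0, 0 and 0 for the genotype comparisons and 15 and 15 for the ages. The share of all probes called in each of these fits is not given here, so the counts do not show whether members shifted more than other probes. The cause of these shifts was not tested.

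Signs of single members, none past the test in these fits, turned as follows. Over single arrays left out, the differences at 180 days ran from -0.56 to 0.74 for Ptprc, -0.052 to 0.52 for C1qa, -0.39 to 0.48 for Itgax, -0.35 to 0.40 for Tyrobp, -0.12 to 0.28 for Fcgr3 and -0.22 to 0.24 for Lyz2. At 90 days they ran from -0.15 to 0.063 for C1qa, -0.15 to 0.11 for Ccl2, -0.041 to 0.14 for Cd79b, -0.060 to 0.18 for Mrc1, -0.17 to 0.19 for Tyrobp, -0.090 to 0.13 for Fcgr3 and -0.10 to 0.28 for Lyz2. Without the 2 arrays together, a choice made after seeing the values, the 180-day differences were -0.20 for Ptprc, -0.25 for Itgax, -0.14 for Tyrobp and -0.11 for Fcgr3. Quantile normalization gave 0.075 for C1qa at 90 days, and array quality weights gave -0.0044 for Itgax and 0.015 for Lyz2 at 180 days. Values under 0.2 units limit what can be said of Adgre1, Cd3e and Cd8a.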
